A study of Mus musculus with 6 samples.

Results

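Voltage-gated sodium and calcium channels open when the membrane depolarises, and many of their subunit genes are used more in some tissues than in others. The genes described here are 29 subunit genes, given as a fixed list of names and matched by mouse NCBI gene number. The list and its tissue classes were chosen with earlier results of these data known. All 29 were found among the 21117 genes of the table. The list holds 9 sodium channel alpha subunits, 3 sodium channel beta subunits, 9 calcium channel alpha-1 subunits, 4 alpha-2-delta subunits and 4 calcium channel beta subunits. Messenger RNA of aortic tissue was sequenced in 3 samples of genotype Fbn1C1041G/+ and 3 wild-type (WT) samples. Fbn1C1041G/+ mice carry 1 copy of a missense allele of Fbn1, the fibrillin-1 gene, and are used as a model of Marfan syndrome. Both groups were aged 32 weeks and were labelled untreated. The labels give the tissue only as aortic, and the sources used here do not give the length of vessel or the surrounding tissue left on it.

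A sodium channel alpha subunit forms the whole pore and gives the fast upstroke of the action potential, and beta subunits modulate its gating and its place in the membrane. In a calcium channel the alpha-1 subunit forms the pore, an intracellular beta subunit and an alpha-2-delta subunit carry it to the surface, and calcium entry then drives contraction in muscle and secretion in nerve endings and chromaffin cells. In the aorta the L-type channel Cacna1c is the main route of voltage-gated calcium entry into smooth muscle, while sympathetic nerves, ganglia and paraganglia beside the vessel use neuronal isoforms. The 29 genes were set apart by the tissue each is best known from. The 17 nerve isoforms were Scn1a, Scn2a, Scn3a, Scn8a, Scn9a, Scn10a, Scn11a, Scn2b, Scn3b, Cacna1a, Cacna1b, Cacna1d, Cacna1e, Cacna1i, Cacna2d2, Cacna2d3 and Cacnb4. Smooth muscle isoforms were Cacna1c, Cacna1h, Cacna2d1, Cacnb2 and Cacnb3, striated muscle isoforms were Scn4a, Scn4b, Cacna1s and Cacnb1, and Scn7a, Cacna1g and Cacna2d4 were put in neither class. Several of these genes are also used outside the class they were put in, among them Cacna1d in the pacemaker of the heart and Cacnb2 in heart muscle.

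Values are FPKM, fragments scaled to transcript length and to the size of the library. Levels of different genes can be set side by side only roughly, since this scaling does not take GC content into account. Estimated from the spacing of low values, library depth was 14560000 to 16690000 fragments in Fbn1C1041G/+ and 13860000 to 16680000 fragments in WT samples. At that depth 1 FPKM of Scn9a stood for about 120.1 to 144.7 fragments. Tests were made with limma on log2(FPKM + 1), a scale that understates the change of low genes, over the 13438 genes that averaged 1 FPKM or more, and a gene was called at an adjusted p under 0.05. Smooth muscle markers were high in all 6 libraries, with Acta2 at 4674 to 6357 FPKM in Fbn1C1041G/+ and 4956 to 5909 FPKM in WT samples. WT replicate 3 scored -45.80 on principal component 2, where the rest scored -5.10 to 23.13, and its deviation from the other WT libraries correlated with transcript GC content across genes at -0.38. Whether each sample was taken from its own animal is not stated in the labels, and the p-values cover only the sample-to-sample spread, which may be technical.

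Several nerve isoforms fell in Fbn1C1041G/+ aortas, and no smooth muscle isoform was called. Of the 29 genes, 16 reached a mean of 1 FPKM and were tested, 6 of them fell, none rose and 10 were not called. Among all tested genes 4.85% were called lower and 0.744% higher, 5.60% in all. All 6 genes that fell were nerve isoforms, Scn2b, Scn3b, Scn9a, Cacna1b, Cacna2d2 and Cacna2d3. They stood at 18.8% to 35.1% of the WT mean, with log2 differences of -1.43 to -1.25. Scn9a, Cacna1b and Cacna2d2 averaged under 1 FPKM in Fbn1C1041G/+ samples and were tested through their WT level, so that the count of 6 among 16 is a description. Over all 17 nerve isoforms, 16 had a lower mean in Fbn1C1041G/+ samples, and the median log2 difference was -0.52, against 0.00 over all genes of the table. The 3 Fbn1C1041G/+ values lay wholly below the 3 WT values for 11 of the 17 nerve isoforms and for 13 of all 29 genes, where 11.7% of all genes above 0 FPKM did so, and 13.1% of those averaging 1 FPKM or more. They lay wholly above for 2 of the 29, Cacna1h and Cacna1s, where 6.79% of all genes above 0 FPKM did, and 6.85% of those averaging 1 FPKM or more. The 5 smooth muscle isoforms, all tested, gave no call and a median log2 difference of 0.085. Since the classes were set with earlier results of these data known, the contrast between them is a description.

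**Figure D1:**
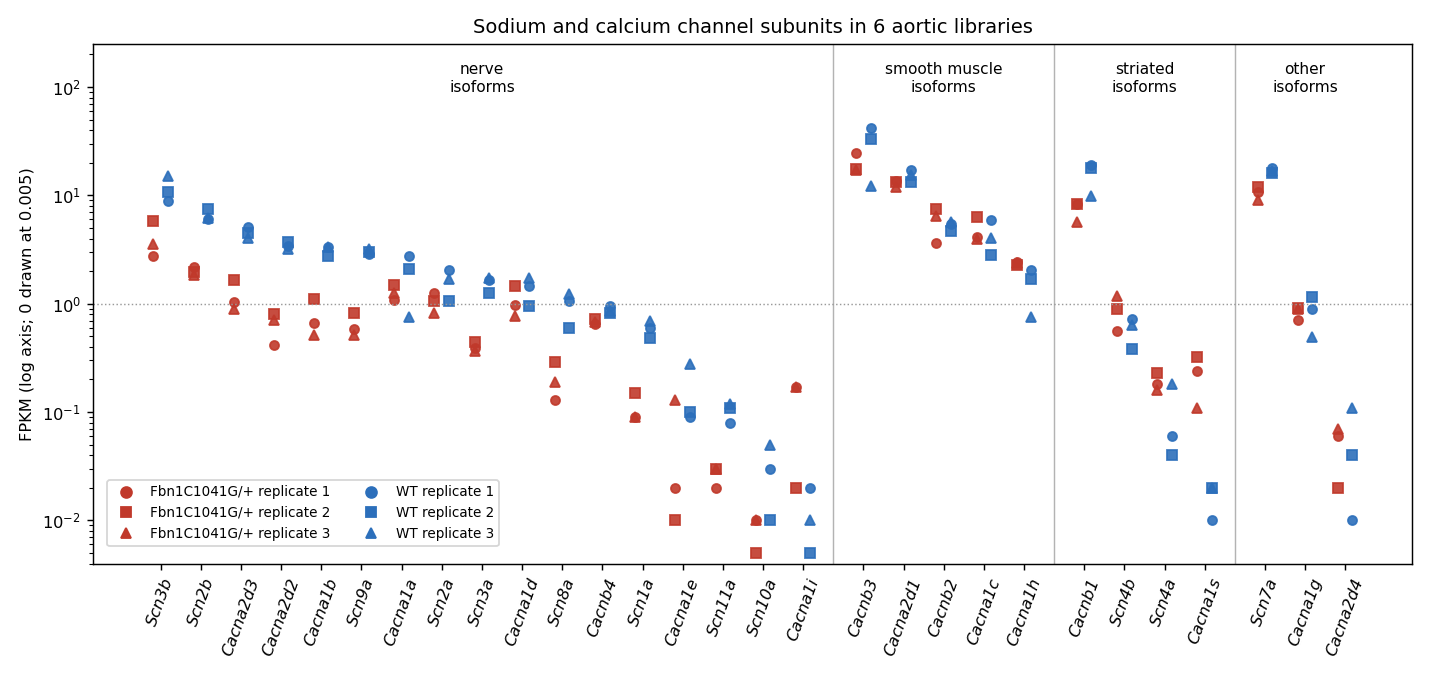
FPKM on a log axis of the 29 subunit genes in each library, Fbn1C1041G/+ samples in red on the left of each gene and WT samples in blue on the right, with the tissue classes separated by grey lines and 1 FPKM dotted. The red points lie wholly below the blue points in 11 of the 17 nerve isoforms and in none of the 5 smooth muscle isoforms.

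Among the pore-forming sodium channel subunits of nerve, Scn9a was the most abundant in WT aortas. Scn9a encodes NaV1.7, a channel of sympathetic and sensory neurons that amplifies small depolarisations. It stood at 0.59, 0.83 and 0.52 FPKM in Fbn1C1041G/+ replicates 1 to 3, against 2.88, 3.03 and 3.17 FPKM in WT replicates 1 to 3. The groups did not overlap, and the WT values varied little. The log2 difference was -1.29 ± 0.15 (SE; limma adjusted p = 0.00360), and the call was kept without each single library in turn, with adjusted p values of 0.00845 to 0.0229. By the estimated depth these values rested on about 72 to 105 fragments in Fbn1C1041G/+ and 381 to 438 in WT libraries. A drop of this kind in bulk tissue can come from fewer cells of a type or from less RNA per cell, and the 2 cannot be told apart here.

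Scn3a, Scn8a and Scn1a stayed under the level required for the test. Scn3a, which encodes NaV1.3, a channel of embryonic and adult endocrine and nerve cells, stood at 0.39, 0.44 and 0.37 FPKM in Fbn1C1041G/+ samples, against 1.66, 1.27 and 1.73 FPKM in WT samples. Scn8a, which encodes NaV1.6, the channel of the nodes of Ranvier, stood at 0.13, 0.29 and 0.19 FPKM in Fbn1C1041G/+ and at 1.05, 0.60 and 1.23 FPKM in WT samples. Scn1a, which encodes NaV1.1, stood at 0.09, 0.15 and 0.09 FPKM, against 0.60, 0.48 and 0.70 FPKM in WT samples. In none of the 3 genes did the groups overlap, and the Fbn1C1041G/+ means were 25.8%, 21.2% and 18.5% of the WT means. When no filter on low values was used, 19875 genes were tested, of which 3.55% were called lower, 0.508% higher and 4.06% in all, and Scn3a, Scn8a and Scn1a were called with limma adjusted p values of 0.00961, 0.0471 and 0.0118.

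Scn2a, which encodes NaV1.2 of unmyelinated axons and endocrine cells, was not called. Its values were 1.27, 1.06 and 0.83 FPKM in Fbn1C1041G/+ and 2.05, 1.07 and 1.70 FPKM in WT samples. WT replicate 2 lay within the range of the Fbn1C1041G/+ samples, and the log2 difference of -0.33 ± 0.20 (SE) was not called (limma adjusted p = 0.560). The channels of sensory ganglia, Scn10a (NaV1.8) and Scn11a (NaV1.9), were close to the limit of detection. Scn10a stood at 0.00 to 0.01 FPKM in Fbn1C1041G/+ and 0.01 to 0.05 FPKM in WT samples, at most about 5 fragments in any library. Scn11a stood at 0.02 to 0.03 FPKM in Fbn1C1041G/+ and 0.08 to 0.12 FPKM in WT samples.

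Summed over the 7 nerve alpha subunits, the level was 2.45 ± 0.383 FPKM in Fbn1C1041G/+ and 7.87 ± 1.14 FPKM in WT samples (SD, n = 3 each). Scn2a made up 50.8%, 37.9% and 40.7% of this sum in Fbn1C1041G/+ samples, against 24.6%, 16.3% and 19.5% in WT samples. Scn9a made up 23.6%, 29.6% and 25.5%, against 34.5%, 46.1% and 36.4% in WT samples. The leading subunit was thus Scn2a in each Fbn1C1041G/+ library and Scn9a in each WT library. An exact 2-sided permutation test gave p = 0.1 for both shares, the smallest that 3 samples against 3 can give, so neither difference can pass 0.05. With Scn4a and Scn7a added to the sum, the share of Scn2a was 7.96 ± 1.34% in Fbn1C1041G/+ and 6.38 ± 1.53% in WT samples (SD, n = 3 each), with overlap (exact permutation p = 0.4).

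Scn7a, the most abundant sodium channel alpha gene of the list, missed the threshold narrowly. It encodes Nax, an atypical member of the family that is gated by sodium level rather than by voltage and is expressed in glia, including Schwann cells. Its values were 10.70, 11.96 and 9.16 FPKM in Fbn1C1041G/+ samples, against 17.95, 15.96 and 16.84 FPKM in WT samples. The groups did not overlap, and the log2 difference of -0.63 ± 0.14 (SE) was not called (limma adjusted p = 0.0519). It passed with quantile normalization (0.0435), with median-ratio scaling (0.0472), with sample weights (0.0243) and after a correction for GC content (0.0334). Scn7a did not pass without any single library (0.0646 to 0.212) or with the replicate number as a block (0.0983). Nor did it pass without the filter (0.0619), with a filter at 5 FPKM (0.0573), with robust moderation (0.0534) or with a pseudocount of 0.1 (0.0523). Of 6 Schwann cell and satellite glia markers, 2 fell, 0 rose and 4 gave no call, where 4.85% of all tested genes fell. The summed level of the 6 was 83.6 to 122.6 FPKM in Fbn1C1041G/+ and 147.7 to 182.1 FPKM in WT samples. Of the markers that fell, Gfra3 lost its call without the filter (adjusted p 0.0506). S100b, a calcium-binding protein of these cells, had a log2 difference of -0.83 (limma adjusted p = 0.0214), and Sox10, a transcription factor of the lineage, had -0.85 and was not called. The call of S100b ended without Fbn1C1041G/+ replicate 2 or 3 or WT replicate 1 or 2, with adjusted p values of 0.0660 to 0.0955, and with the replicate number as a block (0.0537). Sox10 was called without WT replicate 3, with a log2 difference of -1.42 (0.0133), and with sample weights (0.0298). Scn7a equalled 12.2%, 9.76% and 10.96% of the glial marker sum in Fbn1C1041G/+ and 12.0%, 8.76% and 11.4% in WT samples, so the groups overlapped in this ratio. The part of glial cells in the level of Scn7a was not tested.

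Both beta subunits put among the nerve isoforms fell. Scn2b encodes an immunoglobulin-fold subunit that is linked to the alpha subunit by a disulfide bond. It stood at 2.18, 1.96 and 1.86 FPKM in Fbn1C1041G/+ samples, against 6.12, 7.42 and 6.23 FPKM in WT samples, and had the smallest adjusted p of the 29 genes (log2 difference -1.34 ± 0.14 SE; limma adjusted p = 0.00262). Scn3b, a non-covalently bound beta subunit, stood at 2.77, 5.83 and 3.59 FPKM in Fbn1C1041G/+ samples, against 8.96, 10.77 and 14.98 FPKM in WT samples. Its log2 difference was -1.33 ± 0.27 (SE; limma adjusted p = 0.0335). The groups did not overlap for either gene, but the Scn3b values spread more within both groups. The call of Scn3b ended without Fbn1C1041G/+ replicate 1 or 3 (adjusted p 0.107 and 0.133), without WT replicate 1, 2 or 3 (0.0535, 0.104 and 0.0597) and without the filter on low values (0.0623). Scn4b, a beta subunit of heart, skeletal muscle and large neurons, went the other way in its mean, at 0.56, 0.90 and 1.18 FPKM in Fbn1C1041G/+ and 0.72, 0.38 and 0.64 FPKM in WT samples, and its groups overlapped.

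In the RefSeq gene order of mouse assembly GRCm38.p6, several of these genes are neighbours. Scn2b and Scn4b lie next to each other on chromosome 9, and the first fell while the second gave no call even without the filter (limma adjusted p = 0.605). On chromosome 2, Scn1a, Scn9a and Scn7a are consecutive protein-coding genes, and so are Scn3a and Scn2a. Within the first run the Fbn1C1041G/+ means were 18.5%, 21.4% and 62.7% of the WT means, and within the second they were 25.8% and 65.6%. Scn10a and Scn11a, neighbours on chromosome 9 and both close to the limit of detection, stood at 22.2% and 25.8%. The share of the WT level that was left was thus alike in some neighbours and not in others, and these differences were not tested.

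Among the pore-forming calcium channel subunits, only Cacna1b was called. Cacna1b encodes CaV2.2, the N-type channel that triggers noradrenaline release from sympathetic endings. Its values were 0.66, 1.11 and 0.51 FPKM in Fbn1C1041G/+ samples, against 3.37, 2.74 and 3.36 FPKM in WT samples. The groups were far apart, with a log2 difference of -1.25 ± 0.18 (SE; limma adjusted p = 0.00808) that was kept without each single library (adjusted p of 0.0103 to 0.0430). Cacna1a, the P/Q-type channel of central and neuroendocrine synapses, stood at 1.08, 1.48 and 1.25 FPKM in Fbn1C1041G/+ and at 2.75, 2.11 and 0.75 FPKM in WT samples. Only WT replicate 3 lay below the Fbn1C1041G/+ values, and the log2 difference was -0.27 with all libraries (limma adjusted p = 0.801) and -0.59 without WT replicate 3 (0.139). Cacna1d, the L-type channel CaV1.3 of endocrine and pacemaker cells, stood at 0.97, 1.47 and 0.77 FPKM in Fbn1C1041G/+ and 1.45, 0.96 and 1.72 FPKM in WT samples, with overlapping groups. Cacna1e, the R-type channel, was low, at 0.02, 0.01 and 0.13 FPKM in Fbn1C1041G/+ and 0.09, 0.10 and 0.28 FPKM in WT samples.

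Both nerve alpha-2-delta genes fell. These extracellular proteins raise the number of channels at the synapse, and the gabapentinoid drugs bind the first 2 members of the family. Cacna2d2 stood at 0.42, 0.81 and 0.71 FPKM in Fbn1C1041G/+ samples, against 3.41, 3.69 and 3.20 FPKM in WT samples. With a log2 difference of -1.43 ± 0.16 (SE; limma adjusted p = 0.00309) it had the largest fall among the called subunits. Cacna2d3 stood at 1.04, 1.67 and 0.90 FPKM, against 5.13, 4.50 and 4.03 FPKM in WT samples (log2 difference -1.34 ± 0.18 SE; limma adjusted p = 0.00625). Both calls were kept without each single library. Cacna2d1, the member shared by muscle, heart and nerve, stood at 13.45, 13.39 and 11.96 FPKM in Fbn1C1041G/+ and 17.20, 13.32 and 15.35 FPKM in WT samples and was not called (log2 difference -0.22; limma adjusted p = 0.620). Cacna2d1 therefore made up 87.3 ± 2.81% of the alpha-2-delta sum in Fbn1C1041G/+ and 65.4 ± 3.15% in WT samples (SD, n = 3 each), without overlap. The exact permutation p for this share was 0.1, the smallest that 3 samples against 3 can give. Cacna2d4, known from the retina, stayed at 0.02 to 0.07 FPKM in Fbn1C1041G/+ and 0.01 to 0.11 FPKM in WT samples. Cacnb4, the beta subunit of neurons, stood at 0.65, 0.72 and 0.68 FPKM, against 0.95, 0.83 and 0.85 FPKM in WT samples. Its groups did not overlap, but the Fbn1C1041G/+ mean was still 77.9% of the WT mean, and it gave no call without the filter (limma adjusted p = 0.465).

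Start regions of some of the called genes are shown because these genes were all called lower. RefSeq promoter windows of GRCm38.p6, from 250 bases before to 50 bases after a start, were at hand for 23 of the 29 genes, with 33 starts. The called gene Scn3b was not among them. The windows of the 2 calcium and the 2 sodium channel genes with the smallest adjusted p follow, 5′ to 3′ on the strand of the gene. Capitals mark the GC box GGGCGG, searched on both strands with overlaps counted, the letters bound by the Sp1 family. Of all 32851 promoter windows 35.7% hold a GC box, and 13 of the 33 windows of the subunit genes do.
Cacna2d2, chr9:107399630-107399929, plus strand: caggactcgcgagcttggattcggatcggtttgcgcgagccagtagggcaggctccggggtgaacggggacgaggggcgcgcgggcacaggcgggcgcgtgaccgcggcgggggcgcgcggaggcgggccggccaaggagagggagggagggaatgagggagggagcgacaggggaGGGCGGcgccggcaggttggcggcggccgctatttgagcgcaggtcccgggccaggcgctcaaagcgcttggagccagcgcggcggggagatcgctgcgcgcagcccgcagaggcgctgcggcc
Cacna2d3, chr14:29721815-29722114, minus strand: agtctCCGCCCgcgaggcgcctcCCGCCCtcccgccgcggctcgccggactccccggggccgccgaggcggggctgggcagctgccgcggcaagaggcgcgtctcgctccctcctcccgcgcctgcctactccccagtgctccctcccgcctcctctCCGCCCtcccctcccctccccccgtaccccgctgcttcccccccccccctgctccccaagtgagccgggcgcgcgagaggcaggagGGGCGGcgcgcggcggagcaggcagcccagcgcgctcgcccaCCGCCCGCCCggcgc
Scn2b, chr9:45117626-45117925, plus strand: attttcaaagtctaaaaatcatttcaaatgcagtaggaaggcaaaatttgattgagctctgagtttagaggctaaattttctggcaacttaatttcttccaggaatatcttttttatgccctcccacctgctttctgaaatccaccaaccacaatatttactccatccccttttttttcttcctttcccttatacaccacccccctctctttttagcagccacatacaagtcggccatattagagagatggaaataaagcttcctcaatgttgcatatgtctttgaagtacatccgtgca
Scn9a, chr2:66634913-66635212, minus strand: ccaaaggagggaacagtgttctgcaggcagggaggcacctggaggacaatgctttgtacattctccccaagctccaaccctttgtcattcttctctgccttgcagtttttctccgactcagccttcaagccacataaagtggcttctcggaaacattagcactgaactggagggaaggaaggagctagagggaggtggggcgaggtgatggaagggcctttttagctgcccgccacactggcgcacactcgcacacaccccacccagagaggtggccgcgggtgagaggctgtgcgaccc
The Cacna2d2 and Cacna2d3 windows had a GC content of 75.7% and 81.3%, with 43 and 41 CG dinucleotides and 1 and 6 GC boxes. The Scn2b window had a GC content of 38.3% and 2 CG dinucleotides, the Scn9a window had 57.3% and 9, and neither held a GC box. The window of Cacna1b, the third calcium channel gene called, had a GC content of 72.3%, 35 CG dinucleotides and 3 GC boxes. The median GC content of all windows was 52.7%. The silencer REST, which holds neuronal genes off in other cells, binds a long element whose left part reads CAGCACC and whose right part reads GGACAG. On both strands the left part was in none of the 33 windows of the subunit genes and in 7.14% of all windows, and the right part was in 3 of the 33 and in 22.2% of all windows. These counts describe letters in a short window and say nothing of binding.

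**Figure D2:**
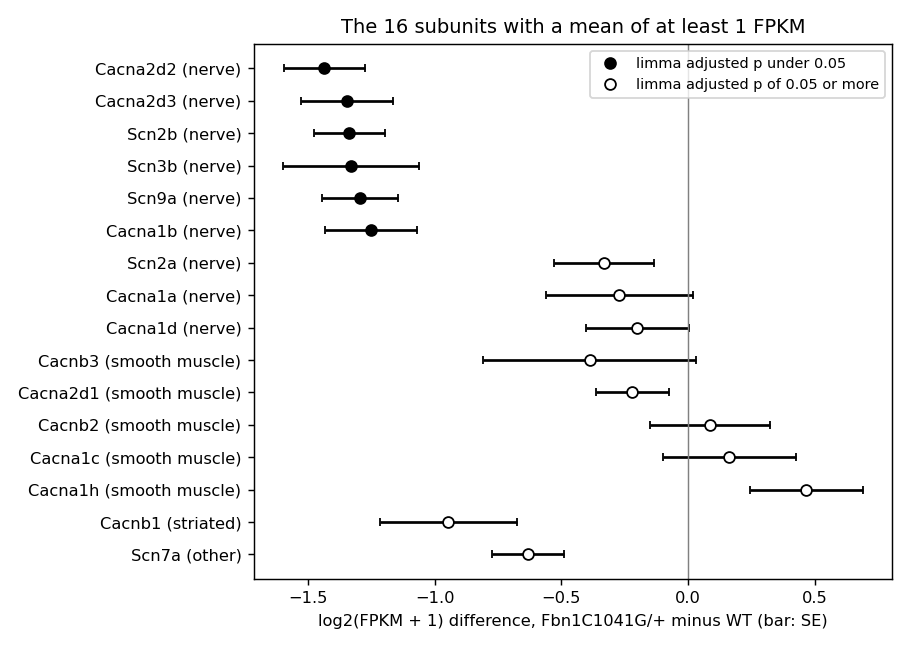
Difference of the group means of log2(FPKM + 1), Fbn1C1041G/+ minus WT, with its SE from limma, for the 16 subunit genes averaging 1 FPKM or more, filled where the adjusted p is under 0.05. The 6 filled points, all nerve isoforms, lie between -1.43 and -1.25, and the 5 smooth muscle isoforms lie between -0.39 and 0.47.

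None of the smooth muscle calcium channel genes was called. Cacna1c, which encodes CaV1.2, stood at 4.16, 6.30 and 3.93 FPKM in Fbn1C1041G/+ and at 5.95, 2.80 and 4.02 FPKM in WT samples. The groups overlapped fully, the log2 difference was 0.16 ± 0.26 (SE; limma adjusted p = 0.886), and its sign turned without Fbn1C1041G/+ replicate 2 (-0.016) or WT replicate 2 (-0.050). Since Cacna1b was lower, Cacna1c made up 58.6 ± 0.294% of the summed high-voltage alpha-1 subunits in Fbn1C1041G/+ and 38.5 ± 5.89% in WT samples (SD, n = 3 each). Cacna1b made up 9.08 ± 1.39% and 29.7 ± 4.42%. For both shares the exact permutation p was 0.1, the smallest that 3 samples against 3 can give. Cacnb2, a beta subunit of heart and vessel, stood at 3.64, 7.44 and 6.50 FPKM in Fbn1C1041G/+ and 5.42, 4.72 and 5.70 FPKM in WT samples, with a log2 difference of 0.085 whose sign turned without Fbn1C1041G/+ replicate 2 (-0.087) or 3 (-0.0019). Cacnb3, the most abundant of the 29 genes and a beta subunit of smooth muscle and nerve, stood at 24.69, 17.60 and 17.03 FPKM in Fbn1C1041G/+ and 41.77, 32.88 and 12.33 FPKM in WT samples. The low WT value of Cacnb3 was that of replicate 3, and the log2 difference was -0.39 with all libraries (limma adjusted p = 0.806) and -0.89 without it (0.0601). Of the 8 smooth muscle markers none was called, and their summed level was 10014 to 12163 FPKM in Fbn1C1041G/+ and 9223 to 10843 FPKM in WT samples. Among them Acta2, Myh11, Tagln and Cnn1, genes of the contractile apparatus, had log2 differences of 0.00041, 0.13, 0.20 and 0.072. The first, second and last of these changed sign in at least 1 alternative, and Acta2 and Cnn1 did so with quantile normalization (-0.032 and -0.038).

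Low-voltage T-type channels, which open near the resting potential and serve vascular tone, gave no call. Cacna1h, which encodes CaV3.2, stood at 2.41, 2.30 and 2.39 FPKM in Fbn1C1041G/+ samples, against 2.06, 1.69 and 0.76 FPKM in WT samples. The groups did not overlap, yet the log2 difference of 0.47 ± 0.22 (SE) was not called (limma adjusted p = 0.417) and was 0.23 without WT replicate 3. Cacna1g, which encodes CaV3.1, stood at 0.71, 0.92 and 0.90 FPKM in Fbn1C1041G/+ and 0.90, 1.16 and 0.49 FPKM in WT samples, with overlap. Cacna1i, the T-type channel of brain, was the 1 nerve isoform with a higher mean, at 0.17, 0.02 and 0.17 FPKM in Fbn1C1041G/+ and 0.02, 0.00 and 0.01 FPKM in WT samples. The 2 high Fbn1C1041G/+ values rested on about 28 and 27 fragments, and replicate 2 lay at the level of WT replicate 1.

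The subunits with GC-rich transcripts were low in WT replicate 3. Cacna1a, Cacna1g, Cacna1h, Cacnb1, Cacnb3 and Cacna1i had transcripts of 58.1% to 60.0% GC, and the other 23 genes had 39.3% to 55.6%. In the first 5, which had a mean of at least 0.5 FPKM, WT replicate 3 stood at 0.309 to 0.532 of the mean of WT replicates 1 and 2. Among the other genes with at least 0.5 FPKM, 16 in number, this ratio was 0.837 to 1.52. The border of 58% was set after these values were seen. No called gene was among the GC-rich ones.

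**Figure D3:**
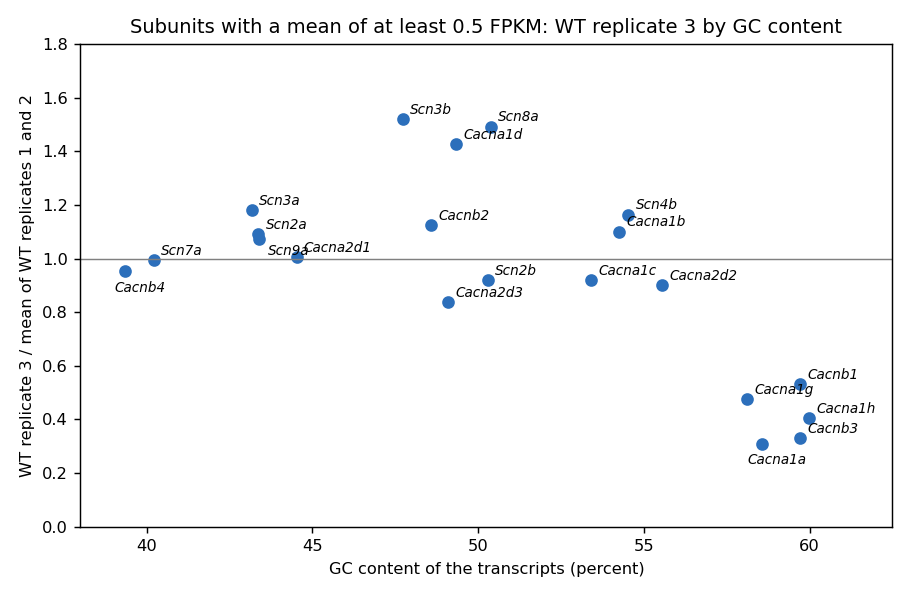
Level in WT replicate 3 divided by the mean of WT replicates 1 and 2, against the mean GC content of the gene's transcripts in percent, for the 21 subunit genes averaging 0.5 FPKM or more. The 5 genes above 58% GC lie between 0.309 and 0.532, and the other 16 lie between 0.837 and 1.52.

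None of the striated muscle isoforms was called, and Cacnb1 was the only one tested. Cacnb1, the beta subunit of the skeletal muscle channel, which is also found in nerve and smooth muscle, stood at 8.33, 8.27 and 5.70 FPKM in Fbn1C1041G/+ samples, against 19.07, 17.98 and 9.86 FPKM in WT samples. The groups did not overlap, and the log2 difference of -0.95 ± 0.27 (SE) was not called (limma adjusted p = 0.117). It was called without WT replicate 3 (log2 difference -1.23, adjusted p 0.0131), with sample weights (0.00848), with the replicate number as a block (0.0264) and after a correction for GC content (0.00896). The call was not reached without any other single library (0.188 to 0.366) or in the remaining alternatives (0.114 to 0.162). Cacna1s, which encodes CaV1.1, the voltage sensor of skeletal muscle, stood at 0.24, 0.32 and 0.11 FPKM in Fbn1C1041G/+ samples, against 0.01, 0.02 and 0.02 FPKM in WT samples. These values rested on about 11 to 29 fragments in Fbn1C1041G/+ and 1 to 2 in WT libraries, and without the filter on low values the gene was not called (limma adjusted p = 0.110). Scn4a, which encodes NaV1.4 of skeletal muscle, stood at 0.18, 0.23 and 0.16 FPKM in Fbn1C1041G/+ and 0.06, 0.04 and 0.18 FPKM in WT samples, and the groups overlapped.

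Heart muscle markers rose in the same comparison, and most skeletal muscle markers gave no call. Of the 8 heart muscle markers 6 rose, where 0.744% of all tested genes did. The summed level of the 8 was 122.7 to 434.9 FPKM in Fbn1C1041G/+ and 13.8 to 31.2 FPKM in WT samples. Of those that rose, Myh6, Myl3 and Mybpc3 averaged under 1 FPKM in WT samples and were tested through their Fbn1C1041G/+ level. Without the filter, where 0.508% of all genes were called higher, 4 of the 8 were called, Actn2 (adjusted p 0.0879) and Myl3 not among them. The markers Myh6, Tnni3, Tnnt2 and Myl3 had log2 differences of 3.54, 3.55, 2.72 and 3.64, all called. Myh6 lost its call when Fbn1C1041G/+ replicate 1 was left out (adjusted p 0.0553), and Myl3 lost it without any single library but Fbn1C1041G/+ replicate 1 or 3 (0.0727 to 0.121) and without the filter (0.0724). Actn2 and Mybpc3 are named here after their values were seen. Of the 8 skeletal muscle markers, 6 were tested and 1 rose, Ckm, with a log2 difference of 2.20, and the summed level of the 8 was 128.2, 82.4 and 16.2 FPKM in Fbn1C1041G/+ replicates 1 to 3 and 7.72 to 13.5 FPKM in WT samples. The groups overlapped in 7 of the 8, and among all genes above 0 FPKM 6.79% lay wholly above. Acta1, skeletal muscle actin, stood at 1.83 FPKM in Fbn1C1041G/+ replicate 3, below each WT value, the lowest of which was 3.04 FPKM. It had a log2 difference of 1.71, not called, and one of 2.94 without Fbn1C1041G/+ replicate 3 (adjusted p 0.0312). Cacna1s was lowest among the Fbn1C1041G/+ libraries in replicate 3, where the skeletal sum was also lowest while the heart sum was highest. Myh1 and Myh4, the myosins of fast skeletal fibres, stood at 0.09 and 0.00 FPKM in that library, against 1.87 to 2.19 and 0.95 to 5.01 FPKM in the other Fbn1C1041G/+ libraries. In Fbn1C1041G/+ replicates 1 and 2 Cacna1s stood at 0.24 and 0.32 FPKM. The skeletal sum there was 128.2 and 82.4 FPKM, the reverse order. Nor did all heart markers follow their sum. Myl3 stood at 50.56, 12.98 and 3.71 FPKM in Fbn1C1041G/+ replicates 1 to 3, in the order of the skeletal sum, and Myh6 at 19.31, 7.04 and 40.75 FPKM. The part of either muscle in the level of Cacna1s was not tested.

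**Figure D4:**
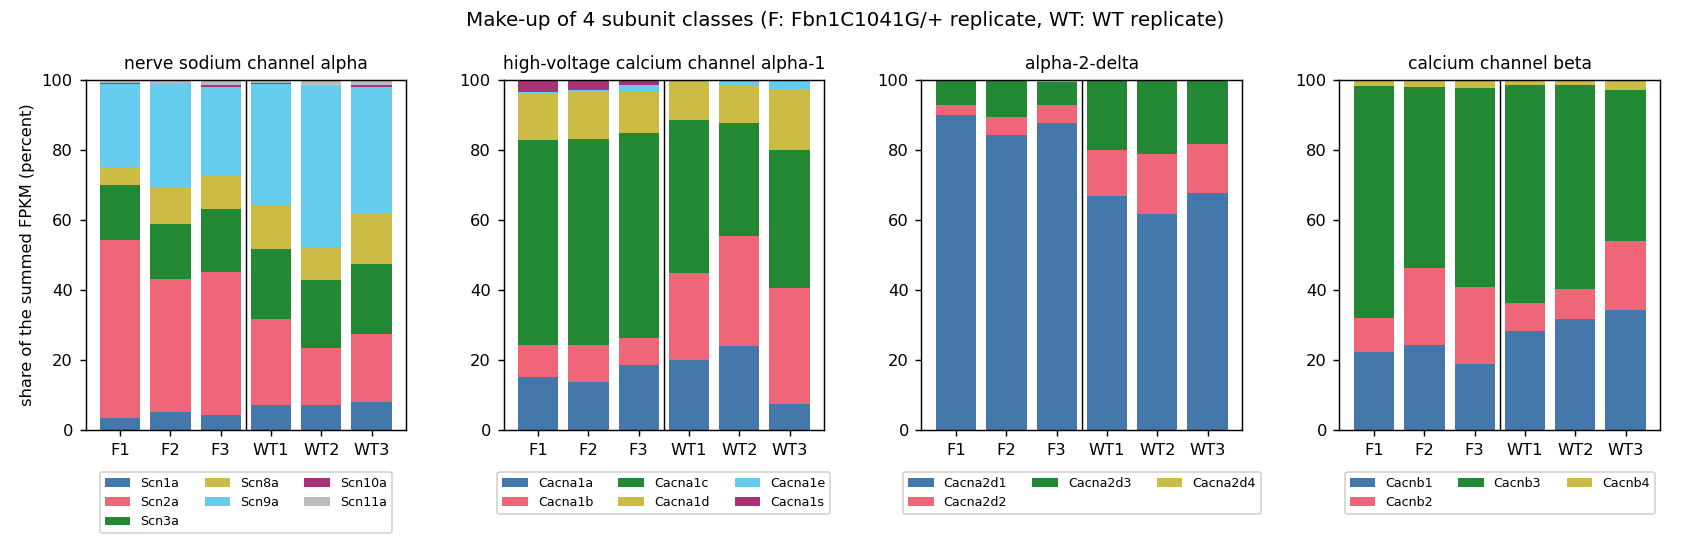
Share of each gene in the summed FPKM of its subunit class, in percent, for the nerve sodium channel alpha, high-voltage calcium channel alpha-1, alpha-2-delta and calcium channel beta subunits, one stacked bar per library with Fbn1C1041G/+ replicates (F1 to F3) left of WT replicates (WT1 to WT3). Scn2a, Cacna1c and Cacna2d1 take larger shares in every Fbn1C1041G/+ library than in any WT library.

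Markers of neurons and chromaffin cells fell in the same libraries. All 10 of them fell, where 4.85% of all tested genes did, with log2 differences of -2.94 to -1.92. Their summed level was 263.2 to 446.0 FPKM in Fbn1C1041G/+ and 2035 to 2422 FPKM in WT samples. Th and Dbh, enzymes of catecholamine synthesis, had log2 differences of -2.94 and -2.92, Snap25, a fusion protein of secretory vesicles, had -2.70, and Stmn2, a tubulin-binding protein of growing axons, had -2.02. The Fbn1C1041G/+ means of the 10 markers were 13.5% to 24.7% of the WT means, beside 18.8% to 35.1% for the 6 called subunits. The summed FPKM of the 17 nerve isoforms equalled 2.79%, 4.07% and 4.79% of the marker sum in Fbn1C1041G/+ replicates 1 to 3, against 1.68%, 1.75% and 2.17% in WT replicates 1 to 3. The groups did not overlap in this ratio, which also holds the genes that did not fall. Against Th alone, Scn9a stood at 0.796%, 1.10% and 1.42% in Fbn1C1041G/+ and 0.576%, 0.706% and 0.703% in WT samples, without overlap. Cacna1b against Th stood at 0.891%, 1.48% and 1.39% in Fbn1C1041G/+ and 0.673%, 0.638% and 0.745% in WT samples, also without overlap. The order of these ratios depended on the marker. Against Stmn2 alone, Scn9a stood at 0.971%, 1.43% and 1.32% in Fbn1C1041G/+ and 1.34%, 1.40% and 1.52% in WT samples, with overlap. Whether the lower channel levels go with the number of nerve and chromaffin cells was not tested. Fibroblast and endothelium markers, 6 each, gave no call, with sums of 1438 to 1794 and 293.1 to 358.5 FPKM in Fbn1C1041G/+ and 1417 to 1552 and 272.9 to 433.2 FPKM in WT samples. Of 6 macrophage markers 1 rose, Lyz2, where 0.744% of all tested genes did, and its call ended without the filter (adjusted p 0.0728). The sum of the 6 was 330.9 to 799.1 FPKM in Fbn1C1041G/+ and 191.1 to 281.4 FPKM in WT samples.

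**Figure D5:**
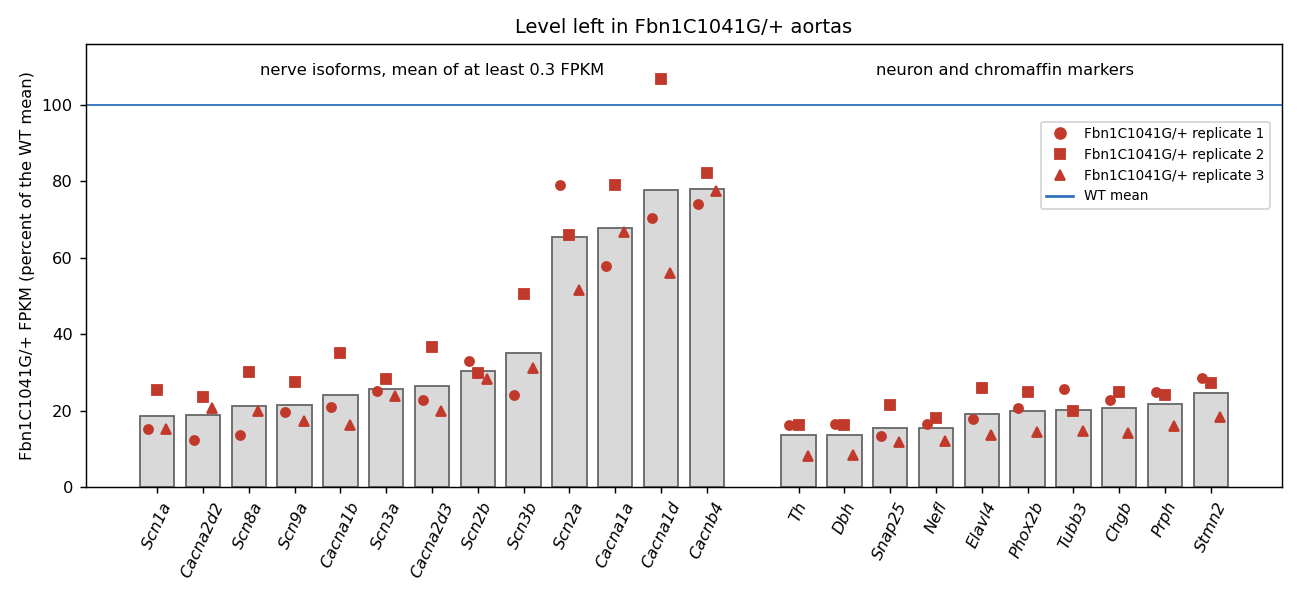
Level in Fbn1C1041G/+ aortas as a percentage of the WT mean (blue line at 100), for the 13 nerve isoforms averaging 0.3 FPKM or more and for the 10 neuron and chromaffin markers, with bars for the mean and points for each Fbn1C1041G/+ replicate. Scn2a, Cacna1a, Cacna1d and Cacnb4 stand at 65.6% to 77.9%, and the other subunits stand between 18.5% and 35.1%.

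Of 28 partner genes 18 were tested. Of those, 7 fell, 0 rose and 11 gave no call, where 4.85% of all tested genes were called lower and 0.744% higher. The median log2 difference of the partner genes tested was -0.46, against -0.0036 over all tested genes. Cacng2, Cacng3, Cacng5, Rims2 and Fgf12 averaged under 1 FPKM in Fbn1C1041G/+ samples and were tested through their WT level, so this count and this median are a description. Over all 28 the median was -0.39. Without the filter 7 were called lower, where 3.55% of all genes were, with Unc80 (limma adjusted p = 0.00624) among them and Cacng2 not. Rimbp2, which ties calcium channels to the release site, fell most, with 1.69, 3.17 and 1.37 FPKM in Fbn1C1041G/+ samples, against 9.97, 8.81 and 9.87 FPKM in WT samples (log2 difference -1.82 ± 0.22 SE; limma adjusted p = 0.00455). Rims2, a scaffold of the release site, had a log2 difference of -1.12. Ank3, the ankyrin that anchors sodium channels at the axon initial segment and nodes, stood at 4.88, 4.18 and 3.15 FPKM, against 10.23, 9.08 and 10.95 FPKM in WT samples (log2 difference -1.14 ± 0.17 SE; limma adjusted p = 0.00922). Fgf12, an intracellular FGF homologous factor that binds the tail of sodium channels, had a log2 difference of -0.79. The other tested members of that family, Fgf11, Fgf13 and Fgf14, had -0.05, -0.14 and -0.41 and were not called (limma adjusted p = 0.951, 0.902 and 0.354). In the gamma family, most of whose members act on glutamate receptors rather than on calcium channels, Cacng2, Cacng3 and Cacng5 had log2 differences of -1.21, -1.13 and -1.39 and were called. Cacng7, the most abundant of the family, stood at 17.37, 18.76 and 20.43 FPKM in Fbn1C1041G/+ and 29.66, 24.37 and 9.47 FPKM in WT samples. Its log2 difference was -0.02 and was not called (limma adjusted p = 0.992). Its transcripts had 58.1% GC, and only WT replicate 3 lay below the Fbn1C1041G/+ values, so the small difference rests on that library. These uncalled relatives are named after their values were seen. The adjusted p of Cacng2 was 0.0499, and its call ended without any library but WT replicate 3 (0.0860 to 0.184), without the filter (0.0619), with median-ratio scaling (0.0567) and after a correction for GC content (0.0683). The calls of Cacng3, Fgf12 and Rims2 ended without Fbn1C1041G/+ replicate 1 or 3 or WT replicate 1 or 2, with adjusted p values up to 0.0773, 0.0950 and 0.102. That of Fgf12 also ended with the replicate number as a block (0.0727).

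The RGK proteins, small GTPases that inhibit high-voltage calcium channels, were not called. Rem1 stood at 6.58, 5.10 and 5.97 FPKM in Fbn1C1041G/+ and 4.12, 3.96 and 5.71 FPKM in WT samples, and Rrad at 30.87, 45.21 and 65.24 FPKM in Fbn1C1041G/+ and 45.98, 54.11 and 31.66 FPKM in WT samples. Neither was called (limma adjusted p = 0.523 and 0.968). Rem2 was at most 0.16 FPKM in any library.

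Exons of 9 of the 29 genes overlap exons of another gene on the opposite strand in the GENCODE M21 annotation, among them Scn9a with Gm13629, Cacna2d2 with Gm17141, Cacnb1 with Gm11629, Cacna1h with Tpsg1 and Cacna1d with Chdh. The sources used here do not say whether the counting used strand, so reads of such pairs may not have been told apart, and the levels of these genes are uncertain to that extent.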

How the data were processed

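Poly(A) RNA libraries of aortic tissue were analysed. The deposited table holds an FPKM value for each gene in each library, per the file headers, to 2 decimals. The submitters' processing notes name build mm9. Aligner, quantifier and annotation: not given in the sources used here. Columns were mapped to samples by name, and 21059 of 21117 gene numbers got a symbol from a RefSeq table of GRCm38.p6. Depth was estimated from the steps of low values in genes with 1 transcript, of which 69.1% to 74.3% came within 0.2 of a whole number of fragments (40% by chance for a fixed step, and more for a fitted one). No intervals were computed. No count model was run. At most 1.83% of non-zero values were identical between 2 libraries.

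The test was limma 3.58.1, run in R 4.3.3 (lmFit and eBayes with a trend, 2-sided, Benjamini-Hochberg adjustment over all tested genes), after a test on simulated data. Differences are Fbn1C1041G/+ minus WT. The 29 members, tissue classes, partner list and marker lists were chosen with earlier results of these data known, and a promoter motif list and the GC correction (loess of span 0.3) after the values were seen. All members are named, and of the partner list the first 3 and the called genes, of the nerve and muscle marker lists the first 4, and of the glial list the first 2; 2 further glial markers are not reported here and enter no count or sum of that list. Alternatives were a pseudocount of 0.1 in place of 1, no filter and a filter at 5 FPKM, quantile and median-ratio scaling, robust moderation, weighted samples, a block for replicate number, and each library left out. Figures were drawn with matplotlib 3.10.9.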

Additional observations from a re-analysis of the deposited data

How the results depend on the processing

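Among the 29 subunit genes, the 6 calls kept their direction in each alternative that tested them. Scn2b, Scn9a, Cacna1b, Cacna2d2 and Cacna2d3 also kept their call under each of these, and Scn3b did not. The number of subunit genes called lower was 5 to 6 without single libraries, 8 without the filter, with sample weights and after the GC correction, and 7 with quantile normalization, median-ratio scaling and the replicate block. With a filter at a mean of 5 FPKM 6 subunit genes were tested and 1, Scn3b, was called. None was called higher in any alternative. Over all genes the calls were 652 lower and 100 higher, 349 and 33 with the filter at 5 FPKM, where fewer genes are tested, 1011 and 285 with sample weights, where the cause was not tested, and 389 to 751 and 37 to 192 without single libraries. No normalization moved the median of all tested genes by more than 0.1 on the log2 scale. With the replicate block 586 genes were lower and 112 higher, and of the subunit genes Cacnb1 gained a call. Deviations of same-numbered samples correlated at 0.26, -0.02 and 0.10, so a pairing was not shown. The sign of the log2 difference turned for Acta2 with quantile normalization (-0.032) and for Cnn1 with quantile normalization (-0.038) and sample weights (-0.019). Without single libraries the log2 difference ranged from -0.050 to 0.39 for Cacna1c, -0.087 to 0.34 for Cacnb2, -0.13 to 0.096 for Acta2, -0.0027 to 0.33 for Myh11, -0.092 to 0.26 for Cnn1 and -0.19 to 0.33 for Rrad. A fit without 1 library leaves that group with 2 samples. Depth limits the lowest genes. Scn10a rested on at most about 5 fragments in any library, and Cacna1i on at most about 28.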
